A study of Schizosaccharomyces pombe with 8 samples.

Results

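Of 4940 fission yeast genes measured in this series, 7 are read here: a galactose gene cluster and genes for secreted enzymes that split sugars. The 7 were picked by systematic name, with earlier results of these data known, and other genes of such functions were also measured. Side by side lie 4 of them: gal7 (SPBPB2B2.10c), tgd1 (SPBPB2B2.11), gal10 (SPBPB2B2.12c) and gal1 (SPBPB2B2.13). The remaining 3 lie elsewhere: mel1 (SPAC869.07c), inv1 (SPCC191.11) and agl1 (SPAPB24D3.10c). All 7 were represented by 14 probes each on 1-colour NimbleGen arrays, and none was dropped by a filter.

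Transcript signals were measured in 4 strains of Schizosaccharomyces pombe, with 2 arrays per strain, each from its own culture. The strains were Δpka1 (YMP37, pka1::ura4), Δcgs1 (YMP41, cgs1::ura4), Δppt1 (OG1, ppt1::kanMX6) and the wild type PR110. All 4 were of mating type h+ and carried leu1-32 and ura4-D18, a deletion of ura4 at its own place. Cells grew in 50 mL of YES, a rich medium with glucose, at 30 °C, and were harvested at 8 hours, still in log phase. Each disruption was represented by 1 strain, and Δpka1 and Δcgs1 differ from wild type and Δppt1 also by the ura4 marker.

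In the Leloir pathway, galactokinase (Gal1) phosphorylates galactose, and galactose-1-phosphate uridylyltransferase (Gal7) turns the product into UDP-galactose, with UDP-glucose as the donor. UDP-glucose 4-epimerase (Gal10) interconverts UDP-galactose and UDP-glucose. Fission yeast carries these genes as a cluster but normally does not grow on galactose. Mel1 is an alpha-galactosidase, Inv1 is invertase, which splits sucrose, and Agl1 is an alpha-glucosidase that splits maltose. In this yeast glucose represses inv1, and cAMP-dependent protein kinase (PKA) carries part of the glucose signal. Pka1 is the catalytic subunit of PKA and Cgs1 the regulatory subunit that holds it inactive, while Ppt1 acts in coenzyme Q synthesis.

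Array medians lay between 21210 and 22148 for replicate 1 of the strains and between 24677 and 25548 for replicate 2. Titles of arrays with the same replicate number share their closing digits, which are read here as 1 slide. Slide, replicate and any other batch of the same arrays cannot be told apart. The gene cgs1 read 1404 and 1360 on the Δcgs1 arrays, against 20232 and 28238 in wild type. The gene ppt1 read 2497 and 1910 on the Δppt1 arrays, against 32691 and 41517 in wild type. The gene pka1 did not read as lost: its signal was 38387 and 46832 on the arrays labelled Δpka1, against 28743 and 34715 in wild type. The files do not say which part of pka1 the probes cover, so this strain is called "labelled Δpka1" throughout. The marker gene ura4 read 32716 and 37383 on the arrays labelled Δpka1 and 39913 and 44787 on those of Δcgs1, as their genotypes require. Its signal was 1307 and 1000 on the Δppt1 arrays and 1362 and 1627 on those of wild type. The highest of the 8 signals of a deleted gene, 2497, served as a background limit.

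Markers of cell types were read beside these genes. The summed signal of 3 P-cell markers, the labelled mating type, was 50779 to 59966 on the arrays labelled Δpka1, 18578 to 21409 in Δcgs1, 17192 to 18182 in Δppt1 and 17816 to 21622 in wild type. All 3 were called higher in labelled Δpka1 than in wild type by the limma rule given below. That rule called 4.33% of all genes higher and 4.13% lower in this comparison. The sum over 5 measured M-cell markers was 46867 to 48692 in labelled Δpka1, 43548 to 49741 in Δcgs1, 37301 to 43408 in Δppt1 and 37546 to 45666 in wild type. Of the 5, mam3 was called higher in labelled Δpka1 than in wild type, and mfm2 lay below the background limit in all strains. Of 6 ascus and spore markers, isp3 rose to 30560 and 35703 in labelled Δpka1, against 2916 and 3057 in wild type, and meu10 fell while at or below the background limit in both strains. The sum over the 6 was 87813 to 98486 in labelled Δpka1, 69144 to 75576 in Δcgs1, 61833 to 69033 in Δppt1 and 57543 to 68714 in wild type. The part of these cells in the results was not tested. In such bulk cultures, more cells of a type and more RNA per cell cannot be told apart.

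The first question was how the 7 genes read where the PKA catalytic subunit is labelled as disrupted. In labelled Δpka1, 6 of the 7 were higher than in wild type, from 1.82-fold for tgd1 to at least 10.0-fold for mel1, and none was lower. The exception was inv1, which was not called and whose arrays overlapped across slides, though it was higher within each slide (log2 differences 0.33 and 0.29). A gene was called where limma's adjusted p, by Benjamini-Hochberg over 4940 genes, lay below 0.05. By that rule 4.33% of all genes were called higher in labelled Δpka1. The median log2 difference of the 7 genes was 1.05, against -0.04 over all genes. Without limma's moderation of the variances 3 of the 7 were called: mel1, agl1 and gal10.

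Within the cluster, gal1 opens the pathway. It read 32477 and 40790 in labelled Δpka1, against 17469 and 20051 in wild type, and the strains did not overlap. The log2 difference was 0.96 ± 0.15 (SE), with limma adjusted p = 0.0113. Without replicate 2 of labelled Δpka1, the call was lost (adjusted p = 0.0651).

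The uridylyltransferase gene gal7 read 14356 and 15484 in labelled Δpka1, against 6528 and 7891 in wild type. Its lower labelled Δpka1 array lay above both wild-type arrays. The log2 values differed by 1.05 ± 0.14 (SE), or 2.08-fold, with limma adjusted p = 0.00508.

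The epimerase gene gal10 had the largest difference within the cluster. It read 20052 and 22958 in labelled Δpka1, against 5670 and 7731 in wild type. This was a log2 difference of 1.70 ± 0.16 (SE), or 3.24-fold, with limma adjusted p = 0.00132, and it ranked 54 from the highest of 4940.

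The gene tgd1 encodes a predicted nucleotide-sugar dehydratase, not an enzyme of the Leloir pathway. It read 5464 and 6827 in labelled Δpka1, against 3029 and 3706 in wild type, so its signals lay nearest the background limit among the 4. Its log2 difference was 0.87 ± 0.17 (SE), with limma adjusted p = 0.0249. That call was lost without replicate 1 of wild type (adjusted p = 0.0798) and without replicate 2 of labelled Δpka1 (adjusted p = 0.126). The models of tgd1 and gal10 overlap on opposite strands in the RefSeq gene table used for names. Because double-stranded cDNA was labelled, sense and antisense RNA cannot be told apart where they overlap.

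Among the hydrolases, mel1 had the largest difference of the 7. It read 24876 and 25128 in labelled Δpka1, against 1617 and 1561 in wild type, where it lay below the background limit on both arrays. Measured against the limit, the signal was at least 10.0-fold higher, and the fitted log2 difference was 3.98 ± 0.19 (SE) with limma adjusted p = 6.08e-05.

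The alpha-glucosidase gene agl1 read 44560 and 53306 in labelled Δpka1, against 11719 and 12755 in wild type. No array overlapped. The difference of 1.995 ± 0.11 (SE) on the log2 scale was 3.99-fold, with limma adjusted p = 0.000133.

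The invertase gene inv1 read 35545 and 47135 in labelled Δpka1, against 28336 and 38560 in wild type. Each strain's second array was the higher, and the higher wild-type array lay above the lower labelled Δpka1 array. The log2 difference was 0.31 ± 0.23 (SE, 95% interval -0.23 to 0.85), with limma adjusted p = 0.527. Within slide 1 the difference was 0.33 and within slide 2 it was 0.29. With slide as a block, inv1 was called (adjusted p = 0.00499), so 7 of the 7 genes were called higher, where 14.7% of all genes were.

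**Figure D1:**
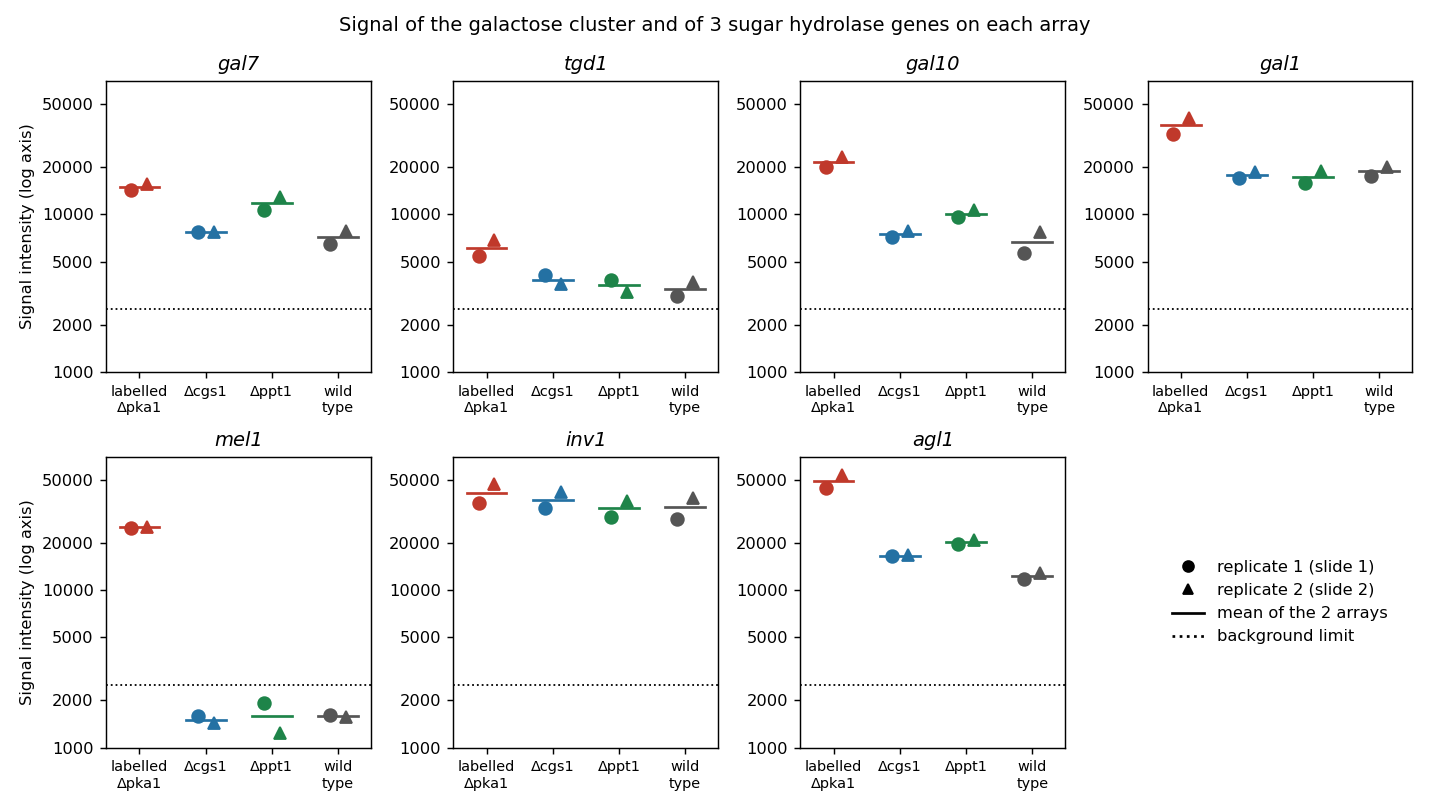
Signal of each of the 7 genes on each of the 8 arrays (log axis), by strain, with circles for replicate 1, triangles for replicate 2, a bar at the mean of the 2 arrays and a dotted line at the background limit of 2497. Both labelled Δpka1 arrays lie above all arrays of the other strains for every gene but inv1, and mel1 lies below the limit in the other 3 strains.

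Labelled Δpka1 was next compared with Δcgs1, the disruptant of the opposing PKA subunit. Both strains carry the ura4 marker, so this comparison is matched for it, which the comparison with wild type is not. In labelled Δpka1, 5 of the 7 genes were higher, against 4.37% of all genes, and none was lower. Without moderation 3 of the 7 were called. The median log2 difference of the 7 was 1.04, against -0.07 over all genes.

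In Δcgs1, mel1 read 1584 and 1429, below the background limit, so labelled Δpka1 was at least 10.0-fold higher (fitted log2 difference 4.05, limma adjusted p = 5.86e-05). The gene agl1 read 16376 and 16701 in Δcgs1, a log2 difference of 1.56 with limma adjusted p = 0.000347. The gene gal10 read 7168 and 7852 in Δcgs1, a log2 difference of 1.52 with limma adjusted p = 0.00209. These 3 calls held when any 1 of the 8 arrays was left out.

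For gal1 the Δcgs1 arrays read 16977 and 18461, a log2 difference of 1.04 with limma adjusted p = 0.00715. For gal7 they read 7742 and 7756, a log2 difference of 0.94 with limma adjusted p = 0.00721. The gal1 call was lost without replicate 1 of Δcgs1 (adjusted p = 0.0560). The gal7 call was lost without replicate 1 of Δcgs1 (adjusted p = 0.0530), replicate 2 of Δcgs1 (adjusted p = 0.0555) or replicate 2 of labelled Δpka1 (adjusted p = 0.0586).

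The arrays of Δcgs1 read 4099 and 3600 for tgd1, both below the 2 labelled Δpka1 arrays. The log2 difference of tgd1 was 0.67 ± 0.17 (SE) and missed the threshold (limma adjusted p = 0.0516). It passed with slide as a block (adjusted p = 0.0270), which made 6 genes called higher, against 12.5% of all genes. It also passed with median centring (adjusted p = 0.0110), quantile normalization (0.00105), cyclic loess (0.000699) and an intensity trend (0.0221). In most fits that left out 1 array tgd1 did not pass, and over those fits its log2 difference ran from 0.51 to 0.83. For inv1 the Δcgs1 arrays read 32899 and 41925 and overlapped those of labelled Δpka1, and the log2 difference was 0.14 (95% interval -0.40 to 0.68, limma adjusted p = 0.814).

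Loss of cgs1 was then set against wild type directly. None of the 7 genes was called in Δcgs1 by limma, at a background of 0.081% of all genes called higher, nor with slide as a block, where 0.648% were. At an unadjusted p below 0.05, 1 of the 7 passed, agl1, as did 2.33% of all genes. The median log2 difference of the 7 was 0.17, against 0.02 over all genes.

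The agl1 signals of 16376 and 16701 in Δcgs1 both lay above the 11719 and 12755 of wild type. The log2 difference was 0.44 ± 0.11 (SE, 95% interval 0.16 to 0.71), with limma adjusted p = 0.818. Of all genes, 8.02% had both Δcgs1 arrays above both wild-type arrays, and agl1 was the only one of the 7 among them. For gal7, gal10, tgd1, gal1 and inv1 the Δcgs1 and wild-type arrays overlapped, with log2 differences of 0.11, 0.18, 0.20, -0.08 and 0.17. Both strains lay below the background limit for mel1, so no fold is given. For inv1 the 95% interval of the log2 difference ran from -0.37 to 0.71.

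The arrays of Δppt1 addressed loss of an enzyme outside the PKA pathway. Among the 7 genes, agl1 alone was called higher than wild type, against 0.688% of all genes, and none was lower. With slide as a block 3 were called higher, gal7, gal10 and agl1, against 5.53% of all genes. The same 3 had both Δppt1 arrays above both wild-type arrays, which held for 10.4% of all genes. The median log2 difference of the 7 was 0.07, against -0.02 over all genes.

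On the Δppt1 arrays agl1 read 19529 and 20880, against 11719 and 12755 on wild-type arrays. This made a log2 difference of 0.72 ± 0.11 (SE), with limma adjusted p = 0.0475. The call was lost whichever of the 8 arrays was left out, with adjusted p from 0.0552 to 0.279, while the log2 difference stayed between 0.66 and 0.78. It was also lost with an intensity trend (adjusted p = 0.0722), where gal7 was called instead (adjusted p = 0.0327), and with values below the background limit set to it (0.0714).

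On the Δppt1 arrays gal7 read 10576 and 12889, against 6528 and 7891 on wild-type arrays. The strains differed by 0.70 ± 0.14 (SE) in log2 signal, with limma adjusted p = 0.0888, or 0.00943 when slide entered as a block. On the Δppt1 arrays gal10 read 9571 and 10621, against 5670 and 7731 on wild-type arrays. The strains differed by 0.61 ± 0.16 (SE) in log2 signal, with limma adjusted p = 0.231, or 0.0158 when slide entered as a block.

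The other genes of the set showed no such separation in Δppt1. There tgd1 read 3842 and 3240, gal1 read 15901 and 18728, and inv1 read 28972 and 36784, and each overlapped wild type. Their log2 differences were 0.07, -0.12 and -0.02. In Δppt1 mel1 read 1924 and 1246, below the background limit.

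**Figure D2:**
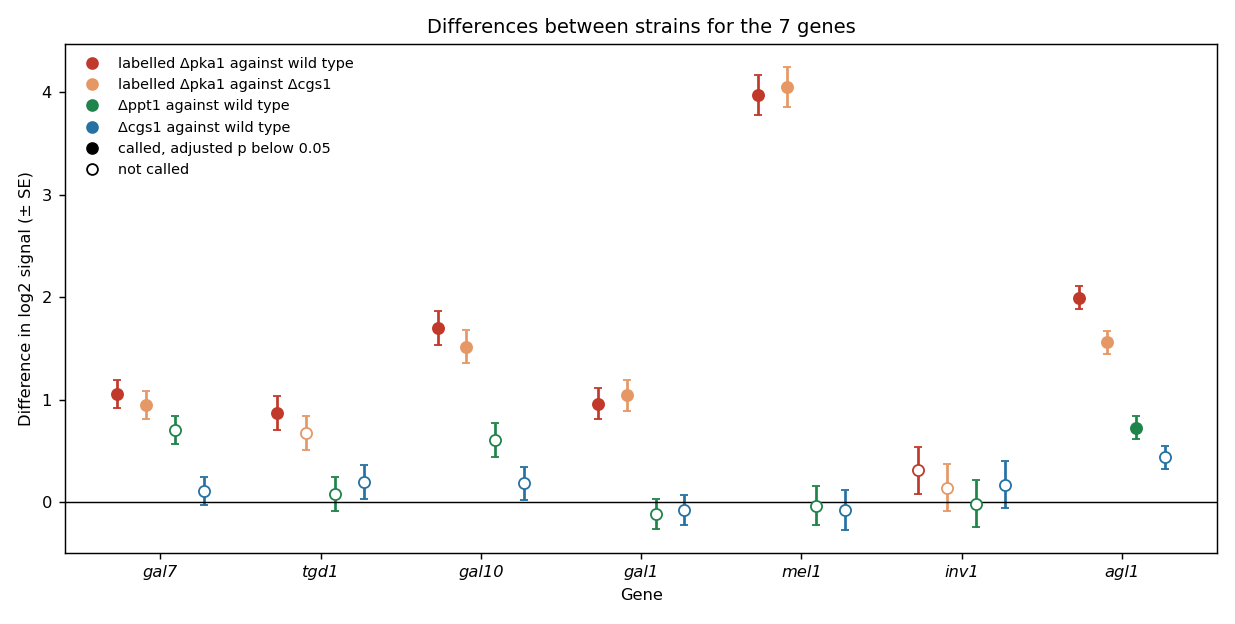
Difference in log2 signal (± SE, 2 arrays per strain) of the 7 genes in 4 comparisons; filled points have a limma adjusted p below 0.05. The 2 comparisons of labelled Δpka1 lie between 0.67 and 4.05 for all genes but inv1, and the agl1 point of Δppt1, at 0.72, is the only filled one without labelled Δpka1.

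The strains could thus be put in order gene by gene. For agl1 the order was labelled Δpka1, Δppt1, Δcgs1 and wild type, with no overlap between neighbours. For gal7 and gal10 it was labelled Δpka1, then Δppt1, then Δcgs1 and wild type, which overlapped. Only labelled Δpka1 stood apart for gal1, tgd1 and mel1, and by this measure no strain stood apart for inv1, though within each slide labelled Δpka1 was the highest of the 4. The arrays labelled Δpka1 exceeded all 6 others for 6 of the 7 genes, as they did for 9.8% of all genes. The arrays of Δppt1 exceeded those of Δcgs1 for 3 of the 7, gal7, gal10 and agl1, as they did for 12.2% of all genes. Comparisons that share the arrays of a strain, such as wild type or labelled Δpka1, are not independent of each other. All of them also use the same estimate of each gene's spread.

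Other genes of sugar use were read from lists that were also chosen with earlier results of these data known. In labelled Δpka1, 5 of 9 listed hexose and disaccharide transporter genes were called higher than wild type and none lower, against 4.33% and 4.13% of all genes, with a median log2 difference of 0.74. The gene ght3 was at least 8.19-fold higher (fitted log2 difference 3.60). The low-glucose transporter gene ght5 had a log2 difference of 0.88, ght1 of 2.47 and ght4 of 2.47.

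Among 10 other alpha-glucosidase, amylase-family and trehalase genes, 2 were higher in labelled Δpka1 and none lower, against 4.33% and 4.13% of all genes. The median log2 difference of the 10 was 0.31. In the blocked fit 5 were higher, against 14.7% of all genes. The gene gto1 read 13294 and 14554 in labelled Δpka1, against 3618 and 4451 in wild type, a log2 difference of 1.79 with limma adjusted p = 0.000618. The gene gto2 read 40809 and 51041 in labelled Δpka1, against 16149 and 18880 in wild type, a log2 difference of 1.39 with limma adjusted p = 0.00236.

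Among genes that supply or transfer UDP-galactose, 1 of 17 was called lower in labelled Δpka1 and none higher. It was otg1, a galactosyltransferase gene, with a log2 difference of -0.78 and limma adjusted p = 0.0498. By this rule 4.13% of all genes were called lower and 4.33% higher. The gene uge1, for the other UDP-glucose 4-epimerase of this yeast, had a log2 difference of 0.03 (limma adjusted p = 0.957). Of 13 cell wall glucanase genes, 1 was higher and none lower, against 4.33% and 4.13% of all genes. It was exg3 (log2 difference 0.64, limma adjusted p = 0.0269). In the blocked fit 2 of the 13 were higher and 1 lower, against 14.7% and 24% of all genes. Of the 13, 5 lay within 10% of the highest signal, where differences are compressed, as did 2 of the 17 UDP-galactose genes.

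Of 15 regulators of glucose repression, none was called by limma in labelled Δpka1, 2 passed at an unadjusted p below 0.05, and with slide as a block 5 were higher and 1 lower. The median log2 difference was 0.09. The gene rst2, for the zinc-finger activator of glucose-repressed genes, had a log2 difference of 0.38 (limma adjusted p = 0.136, or 0.00263 when slide entered as a block). The gene scr1, for the repressor of inv1, had a log2 difference of 0.17 (limma adjusted p = 0.304, or 0.0388 when slide entered as a block). Across all genes 22.9% passed at an unadjusted p below 0.05, and with slide as a block 14.7% were higher and 24% lower.

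No gene of these 5 lists was called in Δcgs1 or Δppt1 by limma. At an unadjusted p below 0.05, 2 transporters passed in Δcgs1 and none of the other 4 lists did, against 2.33% of all genes. In Δppt1 2 transporters, 2 UDP-galactose genes, 1 glucosidase and 1 glucanase passed, and no regulator did, against 9.13% of all genes. With slide as a block each of the 5 lists had 1 or 2 genes called in Δppt1, where 5.53% of all genes were higher and 7.35% lower, and none in Δcgs1.

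The genes beside the cluster were read next. Of 9 other measured genes of the same cosmid, none was higher in labelled Δpka1 than in wild type and 5 were lower. Of all genes, 4.33% were called higher and 4.13% lower. The adjoining gene pan5 had a log2 difference of -0.81 (limma adjusted p = 0.0365), next to gal7 at 1.05. The gene nrg1, at the low-numbered end of the cosmid, read 1975 and 1611 in labelled Δpka1, against 14541 and 16982 in wild type, at least 6.29-fold lower. On the far side of the cluster, ftm7 lay below the background limit in both strains. Beyond it SPBPB2B2.18 was at least 1.59-fold lower in labelled Δpka1.

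Other genes of this cosmid were called in the remaining disruptants. In Δcgs1 SPBPB2B2.18 read 18303 and 20103, against 3573 and 4438 in wild type, a log2 difference of 2.27 with limma adjusted p = 0.0215. In Δppt1 3 of the 9 were higher, against 0.688% of all genes, and none was lower. They were nrg1 (log2 difference 1.25), SPBPB2B2.05 (log2 difference 1.59) and SPBPB2B2.08, which was at least 4.51-fold higher. In the blocked fit 2 were also lower in Δppt1, against 7.35% of all genes.

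Around mel1 the neighbours were high in labelled Δpka1 as well. Of 10 other genes of its cosmid, 7 were higher than wild type and none lower, against 4.33% and 4.13% of all genes. Among the 7, SPAC869.04 lay at or below the background limit in both strains. In the blocked fit 9 of the 10 were higher and 1 lower, against 14.7% and 24% of all genes. On one side hry1 read 18535 and 21051 in labelled Δpka1, against 1073 and 937 in wild type, at least 7.91-fold higher. On the other side pcm2 was at least 1.69-fold higher, and SPAC869.09, at 28828 and 26579 in labelled Δpka1 against 1946 and 2192 in wild type, was at least 11.1-fold higher. The sulfate transporter gene sul2 had a log2 difference of 1.19 in labelled Δpka1 and of 2.25 in Δppt1, where mel1 was at background. In Δcgs1 1 of the 10 was called higher, SPAC869.01 (log2 difference 1.03, beside 0.65 in labelled Δpka1), against 0.081% of all genes. With slide as a block 3 of the 10 were higher in Δcgs1, against 0.648% of all genes.

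In labelled Δpka1 few genes beside inv1 or agl1 were called, where 4.33% of all genes were called higher and 4.13% lower. Of 10 other genes of the inv1 cosmid, 1 was higher in labelled Δpka1, SPCC191.01 with a log2 difference of 1.15, and none was lower. In the blocked fit 3 were lower, near the 24% of all genes. Of the 10, 2 lay within 10% of the highest signal. Beside inv1 itself, SPCC191.10, gst1 and bdf1 were not called, nor was utp502 (log2 difference -0.74), except with slide as a block (adjusted p = 0.0159). Of 8 other genes of the agl1 cosmid, 1 was called, SPAPB24D3.06c, lower by a log2 difference of -0.70, and with slide as a block 2 of the 8 were lower. In Δppt1 none of these 8 was called by limma and 5 passed at an unadjusted p below 0.05, against 9.13% of all genes. With slide as a block 5 of the 8 were higher there, beside agl1 itself, against 5.53% of all genes. The median log2 difference of the 8 in Δppt1 was 0.30, against -0.02 over all genes. Of the 8, 1 lay within 10% of the highest signal. The nearest genes on either side of agl1, pdr1 and mfc1, had log2 differences of 0.07 and 0.19 and were not called. Beyond mfc1, SPAPB1A11.02 had a log2 difference of 0.62 (limma adjusted p = 0.0585, or 0.0269 when slide entered as a block).

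**Figure D3:**
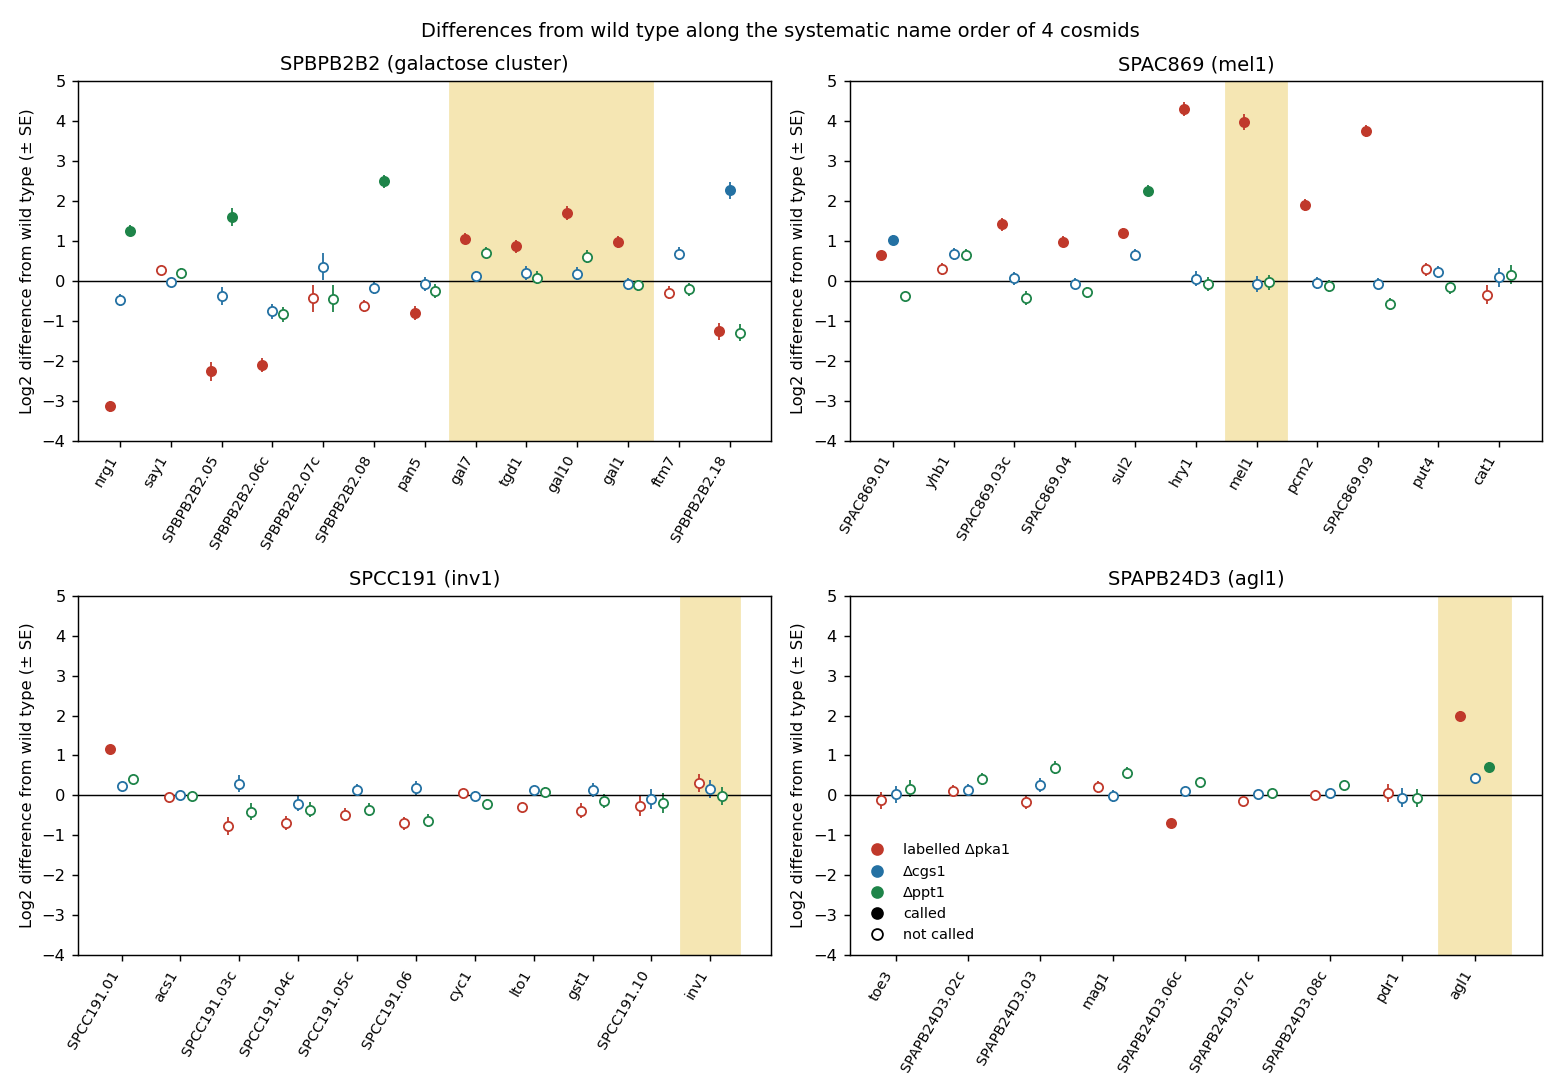
Log2 difference from wild type (± SE, 2 arrays per strain) of all measured genes of 4 cosmids, in order of systematic name, with the 7 genes shaded; filled points have a limma adjusted p below 0.05. In labelled Δpka1 the 4 cluster genes lie above the genes on both sides, mel1 stands among 7 higher genes, and agl1 is the only gene of its cosmid called higher.

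The genes most like each of the 7 were sought by the root mean square difference of log2 values over the 8 arrays, each gene centred on its own mean. This was done where strain means differed by at least 1 on the log2 scale, which left out tgd1 (0.87) and inv1 (0.33). For gal1 the closest gene was git3, the glucose receptor gene upstream of PKA, at 0.0611, followed by ayr1 at 0.0864 and tsp0 at 0.0953. For gal7 it was SPBC30D10.14, at 0.0674, followed by SPAC688.03c at 0.0855 and SPAC19G12.09 at 0.110. In Δppt1 these 3 had log2 differences from wild type of 0.57 to 0.74, beside 0.70 for gal7.

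For gal10 the 3 closest were cmt2 at 0.0837, tcb2 at 0.109 and osr2 at 0.123. For agl1 they were SPAC4H3.03c at 0.131, tcb2 at 0.139 and gal10 at 0.147, so 1 member of the set was among the closest to another. For mel1 the 3 were its neighbour hry1, SPCC1739.08c and SPBC1289.14. Since mel1 lay at or below the background limit on 6 of the 8 arrays, their distances mostly compare dim signals with each other, and no order is read from them. The likeness rests on 8 arrays of 4 strains and is a description with no test.

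**Figure D4:**
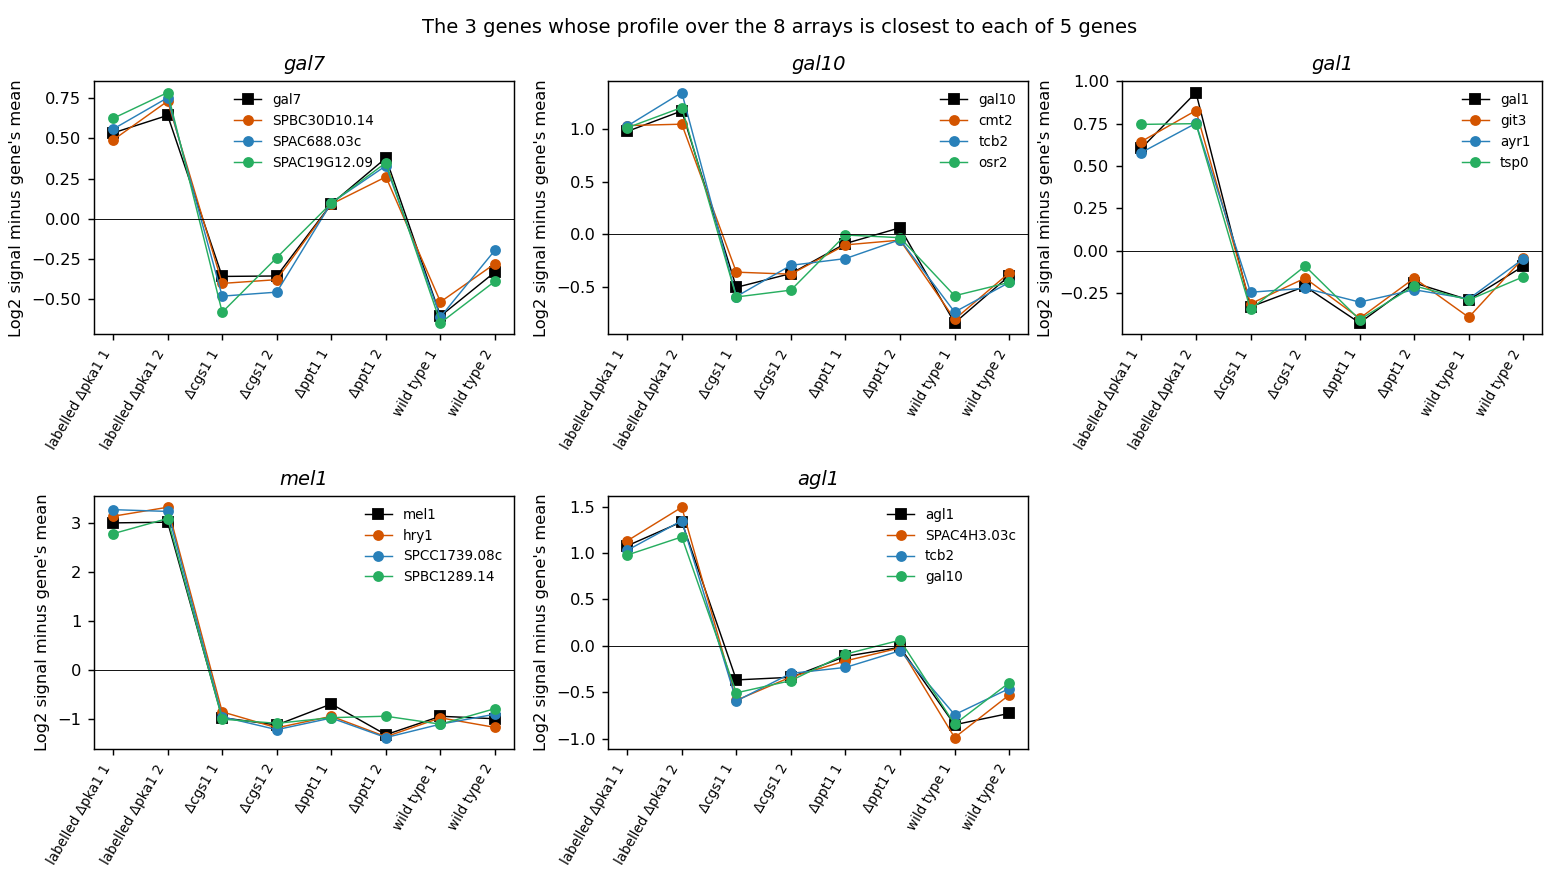
Log2 signal minus each gene's own mean over the 8 arrays, for gal7, gal10, gal1, mel1 and agl1 (black squares) and the 3 genes closest to each (coloured circles), in the order labelled Δpka1, Δcgs1, Δppt1 and wild type. The gal7, gal10 and agl1 panels have a middle step at Δppt1, and the gal1 and mel1 panels do not.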

How the data were processed

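The deposited values were linear intensity, per the file headers 1 probe summary per gene and array. The sources used here do not give the authors' summary method or normalization. The authors' value table was identical to the array files (largest difference 0). Intensities were taken to log2 and fitted with limma 3.58.1 in R 4.3.3, with 1 mean per strain over 8 arrays (4 residual degrees of freedom). The moderated tests of eBayes were two-sided and adjusted by Benjamini-Hochberg over 4940 genes per comparison, and the fit was tested on simulated data. Precision is limited with 2 arrays per strain, and it also changed with the fit. The median SE of a log2 difference was 0.143, and 0.0589 when slide was a block, which left 3 degrees of freedom.

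Titles of arrays with the same replicate number share their closing digits, read here as 1 slide, though they do not name a slide. Deviations of these arrays from strain means correlated in all 6 strain pairs (Pearson's r across genes 0.351 to 0.690). On slide 2, titles and deposited tables name different array positions for the 3 disruptants, and the labelled strain was used. Folds given as "at least" set the brighter strain's mean of log2 values against the background limit, which was set after the data were seen. Symbols and gene order came from a RefSeq table (4913 genes matched). Positions and sequences are not given, since the files name no build.

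The 7 genes and all lists were chosen with earlier results of these data known. Named besides them were the disrupted and marker genes, up to 4 called genes of each list (or 2 uncalled), the 2 nearest measured genes on each side, and the 3 closest profiles. The gene SPAC869.04 was named after its values were seen. The uncalled genes uge1 and mfm2 were named although other genes of their lists were called. Alternatives were centring on the median, quantile and cyclic loess normalization, a floor at the limit, limma with a trend, no moderation, 2 strains alone, slide as a block, and each array left out.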

Additional observations from a re-analysis of the deposited data

How the results depend on the processing

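Direction and call of the 6 genes higher in labelled Δpka1 were the same under median centring, quantile and cyclic loess normalization, a floor at the background limit, an intensity trend and slide as a block. With wild type and labelled Δpka1 alone, tgd1 lost its call. Counts of all genes depended more on the choices, and the cause was not tested.

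Against wild type, labelled Δpka1 had 418 genes called. The count was 1908 with slide as a block, 1439 with median centring, 1810 with quantile normalization, 1733 with cyclic loess, 157 without moderation and 236 with those strains alone. Leaving out 1 array gave 181 to 387, at the lowest without labelled Δpka1 replicate 2, and 4 to 6 of the 7 genes. The share of calls that were higher was 51.2%, against 37.9% with slide as a block, 65.6% without moderation and 36.4% to 73.5% with 1 array left out. Leaving out 1 array gave 206 without labelled Δpka1 replicate 1 and 260 without wild type replicate 2. Without moderation 3 of the 7 were called. The inv1 call was gained with slide as a block (adjusted p = 0.00499) and with median centring (0.0495), quantile normalization (0.0284) and cyclic loess (0.0176).

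Against Δcgs1, labelled Δpka1 had 511 genes called. The count was 2041 with slide as a block, 1435 with median centring, 1845 with quantile normalization, 1734 with cyclic loess and 199 without moderation. Leaving out 1 array gave 201 to 592 genes, and 3 to 6 of the 7 genes, with 3 of them without Δcgs1 replicate 1. Without moderation 3 of the 7 were called.

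In Δcgs1 against wild type, 7 genes were called. The count was 41 with slide as a block, 39 with median centring, 68 with quantile normalization, 63 with cyclic loess, 15 with a trend, 0 without moderation, 3 with those strains alone and 2 to 6 with 1 array left out. Of the 7 calls 57.1% were higher, against 71.8% with median centring and 68.3% with cyclic loess.

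In Δppt1 against wild type, 50 genes were called. The count was 636 with slide as a block, 338 with median centring, 699 with quantile normalization, 642 with cyclic loess, 86 with a trend, 9 without moderation, 24 with those strains alone and 13 to 33 with 1 array left out. Of the 50 calls 68% were higher, against 47.6% with median centring, 46.2% with quantile normalization and 49.2% with cyclic loess. Of the 7 genes 3 were called with slide as a block, median centring, quantile normalization or cyclic loess. The count was 0 with the floor, without moderation, with those strains alone and whichever array was left out. With a trend it was 1, gal7 in place of agl1.

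Differences that changed sign ran from -0.0711 to 0.276 after the change and were never called. In Δcgs1 they were gal7 (-0.0263), gal10 (-0.0434) and inv1 (-0.0542) without wild type replicate 1, gal1 (0.0193) without wild type replicate 2 and inv1 (-0.00685) without Δcgs1 replicate 2. In Δppt1 they were tgd1 (-0.0711) without wild type replicate 1, inv1 (0.204) without wild type replicate 2, and tgd1 (-0.0486), gal1 (0.000976) and inv1 (0.154) without Δppt1 replicate 1. There mel1 also changed sign, with quantile normalization (0.217), cyclic loess (0.0800) and without Δppt1 replicate 2 (0.276), as did inv1 with cyclic loess (0.00863). In labelled Δpka1 against Δcgs1 it was inv1 without Δcgs1 replicate 1 (-0.0346) and without labelled Δpka1 replicate 2 (-0.0633). Over the fits that left out 1 array, the highest differences in Δcgs1 were 0.247 for gal7, 0.404 for gal10 and 0.390 for inv1, and the lowest for gal1 was -0.180. In Δppt1 the highest for tgd1 was 0.220, and the lowest were -0.235 for gal1, -0.350 for mel1 and -0.240 for inv1. In labelled Δpka1 against Δcgs1 the highest for inv1 was 0.344. Precision is limited with 2 arrays per strain and changed with slide as a block, and signals under 2497 cannot be told from background.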
